A study of Mus musculus with 10 samples.

Results

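The genes described here are 39 genes of the tricarboxylic acid (TCA) cycle, of the pyruvate dehydrogenase complex that feeds it, and of the anaplerotic reactions that fill or drain it, out of 13568 genes tested in brown adipose tissue (BAT). They were chosen by name from knowledge of the pathway, with earlier results of these data known, and matched by symbol and Entrez identifier. All 39 were measured and passed the filter on low counts, which was a sum over libraries of more than 45 normalised counts. RNA of BAT was sequenced as 5 control and 5 Stat5Adipoq libraries. Stat5Adipoq mice lacked Stat5a and Stat5b in the cells that express an Adipoq-Cre transgene, which is active in adipocytes and not in the other cells of the tissue. Control littermates had floxed Stat5 alleles and no Cre, as the methods give it, although their labels read wild type. All mice were males of 2 months on the C57BL/6N background, fed a standard diet ad libitum and labelled as basal.

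Libraries held 8488129 to 19514904 counts on genes. Stat5a was 86.9 to 130 CPM (read counts scaled to an equal library size) in controls and 15.8 to 20.7 CPM in Stat5Adipoq BAT, and Stat5b was 76.6 to 91.9 CPM and 21.0 to 22.9 CPM. Of 9 brown adipocyte markers, 9 were detected in every library, and Ucp1 was between 5402 and 13831 CPM. RNA of skeletal muscle varied between libraries. The 10 muscle markers summed to 4761 CPM in control replicate 3, where each of the 10 had its highest level, and to 386 CPM in control replicate 5. The other controls had sums of 5.91 to 69.9 CPM and Stat5Adipoq libraries 3.01 to 53.7 CPM. Control replicate 3 also had the most RNA of 9 liver markers, with a sum of 86.7 CPM where no other library exceeded 6.54 CPM. None of the muscle and liver markers was called between the genotypes, nor was any of 6 macrophage, 5 endothelial and 5 fibroblast markers, whose sums overlapped. Of 6 white adipocyte markers Retn was called lower (adjusted p = 0.023) and Npr3 higher (adjusted p = 0.0084), and the 6 summed to 171 to 251 CPM in control and 207 to 321 CPM in Stat5Adipoq libraries. Of the 9 brown adipocyte markers only Cox7a1 was called, as higher (log2 fold change 0.29, adjusted p = 0.040). Log2 fold changes were also above 0 for Ppargc1a (0.38), Ucp1 (0.24) and Cox8b (0.05). They were below 0 for Dio2 (-1.07), Cidea (-0.20), Adipoq (-0.07), Elovl3 (-0.03) and Plin1 (-0.01). The 9 markers summed to 11225 to 21064 CPM in control and 14036 to 19034 CPM in Stat5Adipoq libraries. Because whole tissue was sequenced, fewer cells of a type and less RNA per cell cannot be told apart.

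The TCA cycle takes acetyl-CoA, made from pyruvate, fatty acids or amino acids, and oxidises it in the mitochondrial matrix to carbon dioxide and reduced cofactors for the respiratory chain. In brown adipocytes this chain drives heat production through UCP1. Carbon also leaves the cycle as citrate or malate for fatty acid synthesis, NADPH and glyceroneogenesis in the cytosol. Several steps are catalysed by a pair of enzymes from separate genes, with an isoform in the matrix and another in the cytosol.

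The calls were counted by compartment, without a test between compartments. Of 34 genes for mitochondrial proteins, 4 were higher in Stat5Adipoq BAT (Idh2, Suclg1, Suclg2 and Me2) and 1 was lower (Pcx). Of 5 cytosolic isoforms, 2 were lower (Mdh1 and Pck1) and none was higher, with edgeR at an adjusted p below 0.05 over all genes tested. No cytosolic isoform had higher expression at an unadjusted p below 0.05 or by DESeq2's Wald test either. For Got1 this includes control replicate 3, at 88.9 CPM against 29.0 to 41.4 CPM in the other controls. Got1 was 33.8 to 55.9 CPM in Stat5Adipoq BAT, and its fold change without that library is not given here. Over all tested genes edgeR called 1.4% higher and 1.31% lower. The median log2 fold change was 0.09 for the mitochondrial genes, -0.15 for the cytosolic isoforms and 0.00 for all genes. Of the 39 genes, 26 had a fold change above 0, against 49.2% of all genes, and 23 with scaling by library size only. An unadjusted p below 0.05 was found for 11 genes with higher and 3 with lower expression, against 7.18% and 8.03% of all genes. DESeq2's Wald test called 9 of the 39 higher and 3 lower, against 2.4% and 2.46% of all genes. Without both libraries of highest muscle score, control replicates 3 and 5, a choice made after seeing the data, edgeR called 3 higher and 3 lower.

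**Figure D1:**
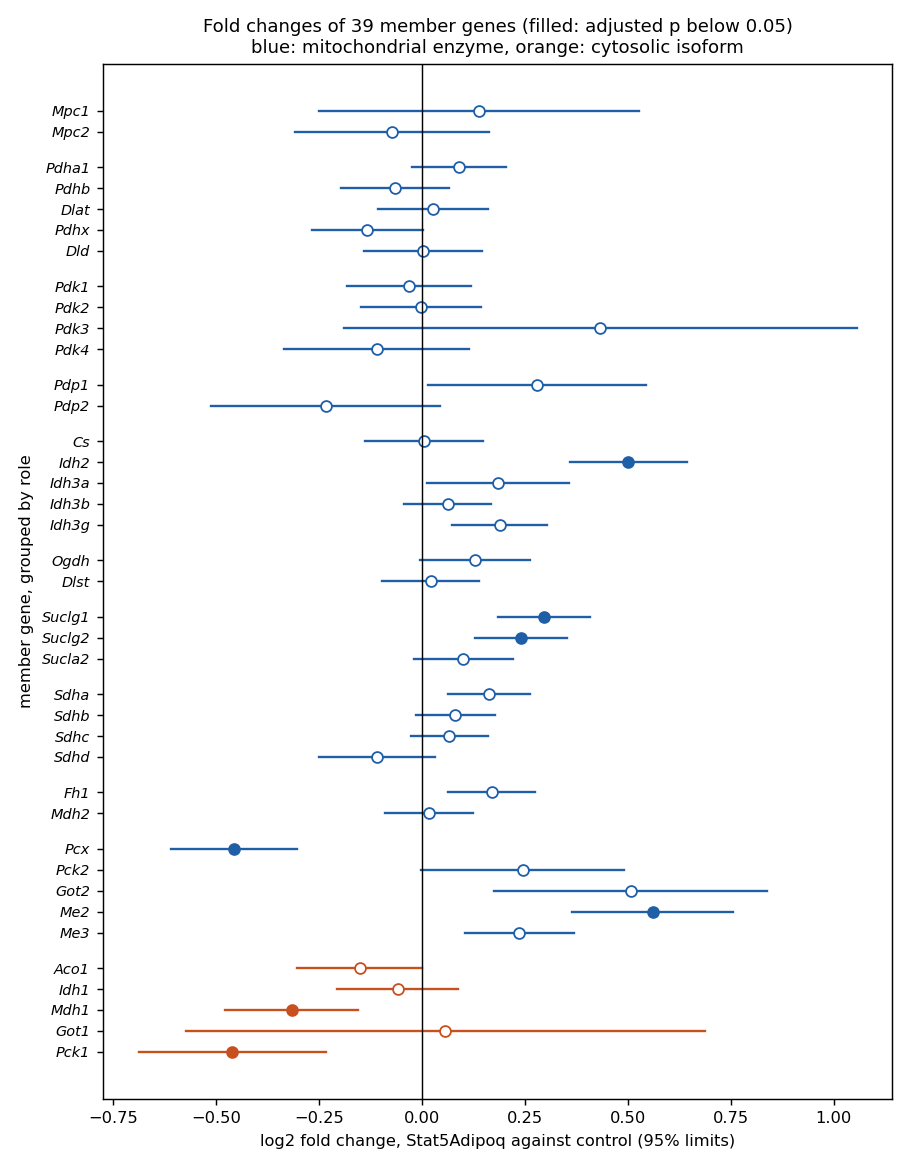
Log2 fold changes of the 39 genes, Stat5Adipoq against control, with 95% confidence limits on the horizontal axis and genes grouped by role from pyruvate import at the top to cytosolic isoforms at the bottom. Blue marks mitochondrial and orange cytosolic enzymes, and filled points are the 7 genes with an adjusted p below 0.05, of which 4 lie above 0 and 3 below.

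Levels of different genes were compared as CPM per kilobase of annotated exon. In control BAT, Pck1 had the highest level of the 39 at 1982 ± 325 CPM per kilobase (SD, n = 5), followed by Pdk4 at 1074 ± 141. Sdhd, Ogdh and Sdha came next at 896 ± 79.1, 887 ± 49.6 and 840 ± 15.5 CPM per kilobase, and these 3 did not differ beyond their spread. Citrate synthase (Cs) was at 570 ± 33.8 CPM per kilobase. At the other end, Pdp1, Me2, Pck2 and Pdk3 lay between 0.652 and 1.75 CPM per kilobase. In Stat5Adipoq BAT, Pck1 again had the highest level, at 1440 ± 107 CPM per kilobase. Exon length was the union over all annotated transcripts, which lowers the value for genes with long minor transcripts, such as Me3 with 14624 bp.

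**Figure D2:**
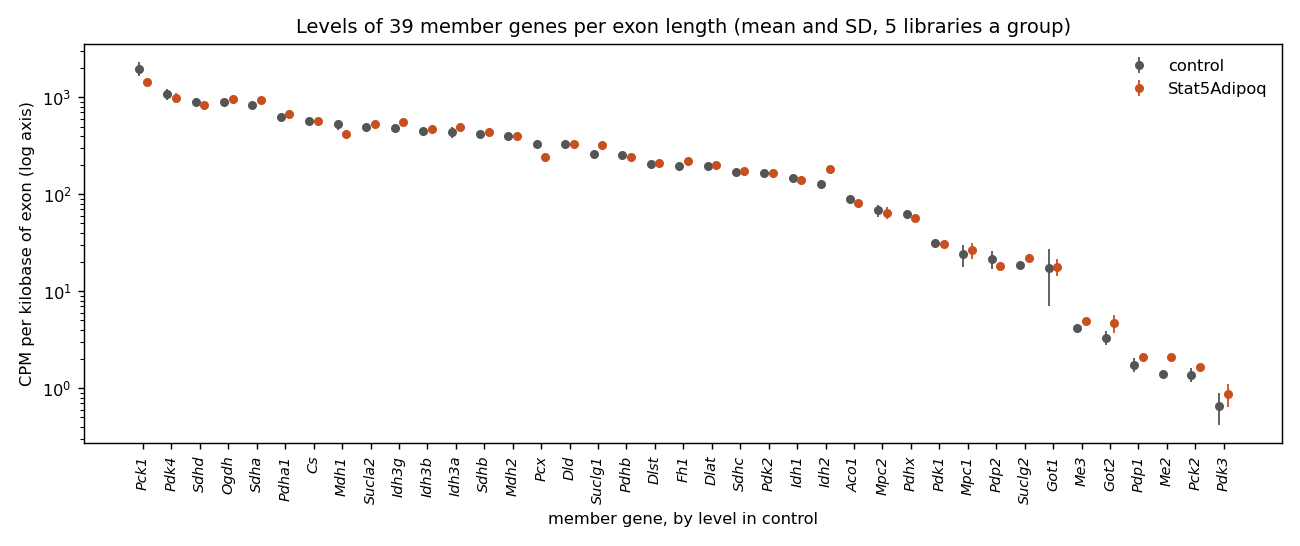
Levels of the 39 genes as CPM per kilobase of exon on a log axis, ordered by the control mean, with points for the mean and bars for the SD of 5 libraries per genotype. From Pck1 at 1982 to Pdk3 at 0.652 CPM per kilobase in control, the genotypes lie close together for most genes, and Pck1, Mdh1 and Pcx are lower and Idh2 is higher in Stat5Adipoq BAT.

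Entry of pyruvate was considered first. Mpc1 and Mpc2 encode the mitochondrial pyruvate carrier. Mpc1 was 33.1 to 64.3 CPM in control and 43.0 to 68.7 CPM in Stat5Adipoq BAT, and Mpc2 was 429 to 616 and 395 to 538 CPM. Neither was called, with adjusted p-values of 0.79 and 0.82. The pyruvate dehydrogenase complex converts pyruvate to acetyl-CoA, and its subunits are Pdha1 and Pdhb of the E1 enzyme, Dlat of E2, Dld of E3 and the E3-binding protein Pdhx. Of these 5 genes none was called, where edgeR called 1.4% of all genes higher and 1.31% lower. Their log2 fold changes lay between -0.13 and 0.09, with adjusted p-values of 0.34 or more. At an unadjusted p below 0.05 the count was also 0, and DESeq2's Wald test called none. The largest difference was that of Pdhx, at 229 to 283 CPM in control and 215 to 234 CPM in Stat5Adipoq BAT, with 95% limits of -0.27 and 0.00 on the log2 scale. For Dld, which the 2-oxoglutarate dehydrogenase complex also uses, the limits were -0.14 and 0.15.

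The complex is switched off by the kinases Pdk1 to Pdk4 and switched on by the phosphatases Pdp1 and Pdp2. Pdk4, the kinase that is induced in fasting and by fatty acids, was 4028, 3128, 3717, 4442 and 3542 CPM in control replicates 1 to 5 and 3093, 3552, 3024, 3820 and 3988 CPM in Stat5Adipoq replicates 1 to 5. The libraries overlapped throughout this range, and the log2 fold change was -0.11 with limits of -0.33 and 0.11 (adjusted p = 0.69). The ratio of Pdk4 to Pdk2 counts also overlapped (log2 difference -0.11, exact permutation test, p = 0.49). Pdk2 was 525 ± 40.8 CPM in control (SD, n = 5) and 524 ± 33.8 CPM in Stat5Adipoq BAT (SD, n = 5), with limits of -0.15 and 0.14 on the log2 fold change. Pdk1 had a log2 fold change of -0.03. Pdk3 was below 3 CPM in every library, and its limits of -0.19 and 1.06 cover a wide range, with 9 counts in the library that had the fewest. Pdp1 was 7.28, 7.26, 9.98, 6.67 and 8.13 CPM in controls and 8.72, 10.6, 10.3, 8.81 and 8.79 CPM in Stat5Adipoq libraries. These overlapped through control replicate 3, with a log2 fold change of 0.28 ± 0.12 (SE, adjusted p = 0.30). Pdp2 was 87.7 to 144 and 94.9 to 120 CPM, and was not called either (adjusted p = 0.43).

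Within the cycle proper, 16 genes encode mitochondrial enzymes from citrate synthase to malate dehydrogenase. Of these, 15 had a fold change above 0, against 49.2% of all genes. Calls by edgeR were 3 higher and 0 lower, where it called 1.4% of all genes higher and 1.31% lower. An unadjusted p below 0.05 was found for 7 with higher and 0 with lower expression, against 7.18% and 8.03% of all genes. Some of the 15 lay close to 0, with log2 fold changes of 0.005 for Cs, 0.02 for Mdh2 and 0.02 for Dlst. How the count of 15 changes with other scaling of libraries is not given here. Idh2 encodes the NADP-dependent isocitrate dehydrogenase of the matrix, which makes 2-oxoglutarate and NADPH. It was 365, 350, 292, 330 and 324 CPM in control replicates 1 to 5 and 473, 487, 497, 442 and 454 CPM in Stat5Adipoq replicates 1 to 5. All Stat5Adipoq libraries lay above all controls, as was the case for 2.35% of all genes. Idh2 rose by a log2 fold change of 0.50 ± 0.07 (SE, adjusted p = 0.0021), which is 41.5% more. It stayed called when any 1 of the 10 libraries was removed and in the 9 other settings tried. In GRCm38 the gene spans chromosome 7 from 80094845 to 80118608.

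The NAD-dependent enzyme of the cycle at the same step is built from Idh3a, Idh3b and Idh3g. Idh3g was 1285, 1374, 1260, 1311 and 1318 CPM in controls and 1393, 1539, 1410, 1558 and 1564 CPM in Stat5Adipoq libraries. These groups did not overlap, yet the log2 fold change of 0.19 ± 0.05 (SE) had an adjusted p of 0.090 in edgeR and 0.0082 in DESeq2. Idh3a had a log2 fold change of 0.18 ± 0.08 (SE, adjusted p = 0.30). It was 2093, 1996, 2695, 2281 and 2019 CPM in controls and 2443, 2445, 2569, 2506 and 2632 CPM in Stat5Adipoq libraries. Control replicate 3 was the highest library of all, and the other controls lay below every Stat5Adipoq library. When control replicate 3 was removed, Idh3a had a log2 fold change of 0.26 and was called (adjusted p = 0.023). It was not called with the muscle score as a covariate (log2 fold change 0.26, adjusted p = 0.17) or with control replicates 3 and 5 both left out (0.25, adjusted p = 0.070). Idh3b (0.06) and Cs (0.00) had smaller log2 fold changes, and Cs had limits of -0.14 and 0.15.

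The 2-oxoglutarate dehydrogenase genes Ogdh and Dlst were not called, with log2 fold changes of 0.13 and 0.02. Their product, succinyl-CoA, is the substrate of succinyl-CoA synthetase, whose α subunit Suclg1 pairs with a β subunit that is specific for GDP (Suclg2) or ADP (Sucla2). Suclg1 was 1287, 1203, 1267, 1182 and 1126 CPM in control replicates 1 to 5 and 1458, 1508, 1543, 1446 and 1493 CPM in Stat5Adipoq replicates 1 to 5. The lowest Stat5Adipoq library was above the highest control, and the log2 fold change was 0.30 ± 0.05 (SE, adjusted p = 0.0095). Its call stood in the 10 fits with 1 library removed and in the 9 other settings. Suclg2 was 88.0, 91.9, 79.3, 82.7 and 85.9 CPM in controls and 103, 98.2, 103, 102 and 99.8 CPM in Stat5Adipoq libraries, again without overlap, with a log2 fold change of 0.24 ± 0.05 (SE, adjusted p = 0.028). The call of Suclg2 stood without control replicates 2, 3 or 5 or Stat5Adipoq replicate 2 and was lost without control replicates 1 or 4 or Stat5Adipoq replicates 1, 3, 4 or 5, where the adjusted p was at most 0.074 and the log2 fold change between 0.21 and 0.27 over all 10. It was also lost with scaling by library size only (log2 fold change 0.22, adjusted p = 0.073), with the muscle score as a covariate (0.22, adjusted p = 0.11) and with control replicates 3 and 5 both left out (0.21, adjusted p = 0.086). Of the 50-base words of its longest transcript, 21.8% also occur in another gene, so its counts may miss reads. Suclg1 lies on chromosome 6 from 73248505 to 73276907 and Suclg2 on chromosome 6 from 95473009 to 95718858. Sucla2 was the more abundant β subunit, at 497 ± 28.7 CPM per kilobase in control (SD, n = 5) against 18.5 ± 1.05 for Suclg2 (SD, n = 5). Sucla2 had a log2 fold change of 0.10 (adjusted p = 0.43). The ratio of Suclg2 to Sucla2 counts was 0.14 higher on the log2 scale in Stat5Adipoq BAT (exact permutation test, p = 0.071, adjusted p = 0.092 over 9 ratios). Of the 10 fits with 1 library removed, 1 was past the threshold, that without control replicate 2 (difference 0.18, exact permutation test, adjusted p = 0.020), and the smallest difference was 0.084 without control replicate 3 (adjusted p = 0.19).

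Succinate dehydrogenase, which is also complex II of the respiratory chain, oxidises succinate, and fumarase (Fh1) hydrates the product to malate. The catalytic subunit Sdha was 3357, 3483, 3480, 3526 and 3486 CPM in controls and 3795, 3877, 3780, 3880 and 4079 CPM in Stat5Adipoq libraries. The groups were apart, with a log2 fold change of 0.16 ± 0.05 (SE) and an adjusted p of 0.088 in edgeR and 0.00049 in DESeq2. Fh1 was 702, 697, 652, 638 and 667 CPM in controls and 750, 797, 740, 740 and 748 CPM in Stat5Adipoq libraries, likewise apart, with a log2 fold change of 0.17 ± 0.05 (SE, adjusted p = 0.097 and 0.0050 from these tests). Of the other subunits, Sdhb and Sdhc had log2 fold changes of 0.08 and 0.07, whereas Sdhd had -0.11 with limits of -0.25 and 0.03, and none of the 3 was called. Mdh2, the malate dehydrogenase of the matrix, was 1400, 1425, 1526, 1366 and 1355 CPM in controls and 1394, 1427, 1413, 1459 and 1464 CPM in Stat5Adipoq libraries. These overlapped, with limits of -0.09 and 0.12 on the log2 fold change.

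Of 5 mitochondrial genes for anaplerosis and its reverse, 1 was called lower and 1 higher, where 1.31% of all genes were called lower and 1.4% higher. Pcx encodes pyruvate carboxylase, which makes oxaloacetate from pyruvate. It was 1683, 1642, 1444, 1460 and 1660 CPM in control replicates 1 to 5 and 1286, 1179, 1057, 1164 and 1066 CPM in Stat5Adipoq replicates 1 to 5. Every Stat5Adipoq library was below every control, as in 2.04% of all genes, and the log2 fold change was -0.46 ± 0.07 (SE, adjusted p = 0.0055), a change of -27.1%. The call held in the 10 fits with 1 library removed, with log2 fold changes between -0.50 and -0.43, and in the 9 other settings. Pcx lies on chromosome 19 from 4510472 to 4621752.

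Me2, the NAD-dependent malic enzyme of mitochondria, turns malate into pyruvate. It was 11.0, 10.9, 10.8, 9.0 and 9.50 CPM in controls and 14.3, 13.7, 15.6, 16.1 and 15.7 CPM in Stat5Adipoq libraries, without overlap. The log2 fold change was 0.56 ± 0.09 (SE, adjusted p = 0.0067), and it was called in the 10 fits with 1 library removed and in the 9 other settings. Its level was low, and the library with the fewest reads of it held 90 counts. Me3, the NADP-dependent malic enzyme of mitochondria, was 59.0, 64.3, 58.9, 60.8 and 65.5 CPM in controls and 66.2, 76.4, 78.7, 73.3 and 69.1 CPM in Stat5Adipoq libraries. These were apart by a small margin, with a log2 fold change of 0.24 ± 0.06 (SE) and an adjusted p of 0.063. Without Stat5Adipoq replicate 1 Me3 was called (log2 fold change 0.27, adjusted p = 0.043), and DESeq2's Wald test called it in all libraries. Got2, the mitochondrial aspartate aminotransferase, was 19.1, 14.6, 18.4, 13.5 and 14.1 CPM in controls and 19.3, 17.4, 29.5, 25.6 and 21.4 CPM in Stat5Adipoq libraries. The lowest Stat5Adipoq library overlapped with control replicates 1 and 3, with a log2 fold change of 0.51 ± 0.15 (SE) and an adjusted p of 0.12 in edgeR and 0.040 in DESeq2. Because 47.2% of the 50-base words of its longest transcript occur in other genes, among them the pseudogene Got2-ps1, its level is uncertain. Pck2, the mitochondrial phosphoenolpyruvate carboxykinase, was 9.67, 12.5, 8.54, 10.6 and 12.4 CPM in controls and 13.7, 11.5, 13.1, 13.6 and 12.1 CPM in Stat5Adipoq libraries, which overlapped, and was not called (adjusted p = 0.33).

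**Figure D3:**
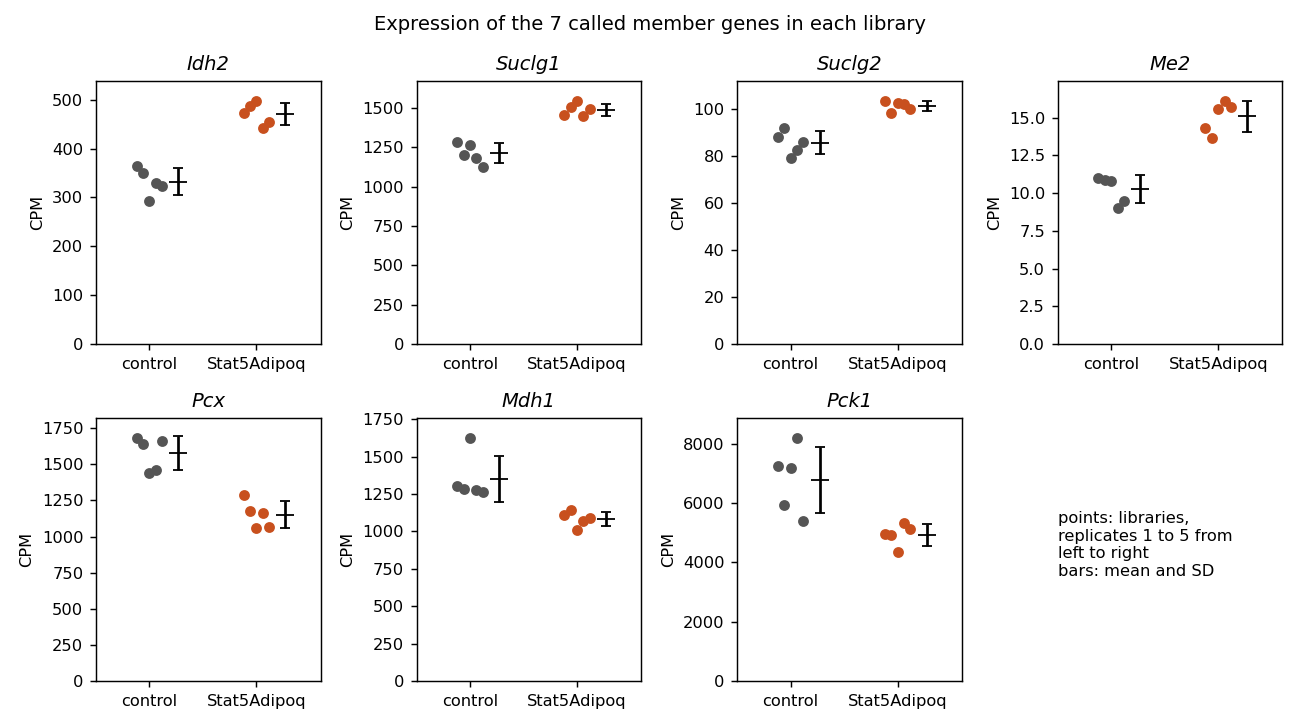
CPM of the 7 called genes in each library, with 1 panel per gene, points for replicates 1 to 5 of control (grey) and Stat5Adipoq (orange) BAT, and bars for the mean and SD. In each panel the genotypes do not overlap, Idh2, Suclg1, Suclg2 and Me2 are higher in Stat5Adipoq BAT and Pcx, Mdh1 and Pck1 lower, and control replicate 3 stands above the other controls for Mdh1 at 1625 CPM.

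Among the cytosolic isoforms, Pck1 encodes the phosphoenolpyruvate carboxykinase that in adipocytes serves glyceroneogenesis, the supply of glycerol for triglyceride from non-sugar sources. It was 7243, 5944, 7175, 8206 and 5409 CPM in control replicates 1 to 5 and 4972, 4917, 4351, 5328 and 5126 CPM in Stat5Adipoq replicates 1 to 5. The highest Stat5Adipoq library was just below the lowest control, and the log2 fold change was -0.46 ± 0.10 (SE, adjusted p = 0.037), a change of -27.3%. The call stood without control replicate 2 or control replicate 5 and was lost in the other 8 fits with 1 library removed, with adjusted p-values of up to 0.11 and log2 fold changes between -0.53 and -0.39. With the muscle score as a covariate the log2 fold change was -0.48 (adjusted p = 0.072), and with control replicates 3 and 5 both left out it was -0.53 (adjusted p = 0.022). Pck1 lies on chromosome 2 from 173153073 to 173159274.

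Promoter sequences were examined in RefSeq's table for GRCm38.p6, which covers 250 bases before to 50 bases after each start site and held 35 of the 39 genes, without Pdp1, Idh3a, Me2 and Sdhc. The core word for STAT5, TTCNNNGAA, was searched on both strands and was found in 0 of the 45 promoters of these genes, against 8.3% of all 32851 promoters. No match says only that these letters are not in this window. The word TCAAGGTCA of oestrogen-related receptors, known regulators of mitochondrial genes, was found in 1 of the 45, that of Sdhd, against 0.423% of all promoters. The promoters of Pck1 and Idh2 are shown because these genes moved in opposite directions by a similar size. Pck1 is on the plus strand at chr2:173152823-173153072 and Idh2 on the minus strand at chr7:80115351-80115600, each given 5′ to 3′ for the 250 bases before the start site in that table. For Idh2 this start site lies inside the RefSeq gene span given above, which reaches further 5′. Capitals mark the cAMP response element word TNACGTCA, which was searched on both strands after the Pck1 sequence had been seen.
Pck1: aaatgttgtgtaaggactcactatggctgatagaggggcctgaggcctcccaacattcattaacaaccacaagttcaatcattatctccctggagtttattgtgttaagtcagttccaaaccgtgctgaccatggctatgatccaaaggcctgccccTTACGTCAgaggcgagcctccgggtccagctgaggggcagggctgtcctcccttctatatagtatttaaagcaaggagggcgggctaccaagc
Idh2: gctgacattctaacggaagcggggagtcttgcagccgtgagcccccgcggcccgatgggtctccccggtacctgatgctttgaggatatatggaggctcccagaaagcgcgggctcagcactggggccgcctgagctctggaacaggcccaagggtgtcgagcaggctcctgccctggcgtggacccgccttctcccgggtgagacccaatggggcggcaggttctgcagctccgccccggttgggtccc
The Pck1 promoter holds the word from position -93, counted back from the start site, and the Idh2 promoter holds neither this word nor the other 2. The cAMP response element word was found in 6 of the 45 promoters, against 2.93% of all promoters. They belong to 4 genes, Pck1, Mdh2, Pdhb and Ogdh, the last with 3 overlapping windows that hold the same letters. Of these 4 genes only Pck1 was called. Because the word was searched after the Pck1 sequence had been seen and Ogdh counts 3 times, 6 of 45 beside 2.93% does not test an enrichment.

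Mdh1, the cytosolic malate dehydrogenase of the malate-aspartate shuttle, was 1302, 1286, 1625, 1276 and 1261 CPM in controls and 1110, 1140, 1011, 1069 and 1090 CPM in Stat5Adipoq libraries. The genotypes were apart with a log2 fold change of -0.32 ± 0.07 (SE, adjusted p = 0.042), and the highest value was that of control replicate 3. Without that library the log2 fold change was -0.24 and the adjusted p 0.021. Mdh1 was also called without control replicate 5 but not in the other 8 fits with 1 library removed, where the adjusted p reached 0.12. With the muscle score as a covariate the adjusted p was 0.17, and without both libraries of highest muscle score it was 0.043 with a log2 fold change of -0.25. Mdh1 lies on chromosome 11 from 21556692 to 21571934.

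Got1, the cytosolic aspartate aminotransferase of the same shuttle, was 88.9 CPM in control replicate 3 and 29.0 to 41.4 CPM in the other controls, against 33.8 to 55.9 CPM in Stat5Adipoq BAT, and it was not called (log2 fold change 0.06, adjusted p = 0.96). Idh1, the cytosolic NADP-dependent isocitrate dehydrogenase, was 398, 430, 408, 347 and 439 CPM in controls and 413, 385, 381, 364 and 397 CPM in Stat5Adipoq libraries, within the control range. Aco1, the cytosolic aconitase that also acts as an iron regulatory protein, was 440, 419, 376, 374 and 411 CPM and 414, 373, 340, 349 and 343 CPM. Only Stat5Adipoq replicate 1 overlapped with the controls, with limits of -0.30 and 0.00 on the log2 fold change. Neither was called (adjusted p = 0.76 and 0.33).

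The isoforms were next compared within each library, as the log2 ratio of mitochondrial to cytosolic counts, which does not depend on how libraries are scaled to each other. Me1, the cytosolic NADP-dependent malic enzyme, is not among the 39 genes and was taken as a partner. Of 6 ratios given here, 5 were higher in Stat5Adipoq BAT without overlap between the genotypes. Each of the 5 had an exact permutation p of 0.0079, the smallest that 5 libraries against 5 allow, and an adjusted p of 0.012 over the 9 ratios computed. All 5 hold a gene that edgeR called in these same libraries (Idh2, Mdh1, Pck1, Me2 or Me1). These tests are therefore not separate from those calls. The mitochondrial partners Mdh2, Pck2 and Me3 were not called by edgeR (adjusted p = 0.92, 0.33 and 0.063).

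The ratio of Idh2 to Idh1 was -0.12, -0.30, -0.48, -0.07 and -0.44 on the log2 scale in control replicates 1 to 5 and 0.19, 0.34, 0.38, 0.28 and 0.19 in Stat5Adipoq replicates 1 to 5. Thus Idh1 had more counts than Idh2 in every control and fewer in every Stat5Adipoq library. Per kilobase the order was the same, with 128 CPM for Idh2 and 146 CPM for Idh1 in control and 182 and 140 CPM in Stat5Adipoq BAT. The ratio rose by 0.56 ± 0.09 (SE). For Mdh2 to Mdh1 the ratio was between -0.091 and 0.15 in control and between 0.32 and 0.48 in Stat5Adipoq BAT, a difference of 0.33 ± 0.05 (SE). Control replicate 3 was the lowest at -0.091, and without it the difference was 0.29.

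The largest shift was that of the malic enzymes. Me2 to Me1 went from -6.13, -6.38, -6.58, -6.73 and -6.72 in controls to -5.10, -5.34, -5.32, -5.51 and -5.48 in Stat5Adipoq libraries, which is 2.24-fold (standard error 0.14 on the log2 scale). Me3 to Me1 was between -4.14 and -3.71 in control and between -3.35 and -2.85 in Stat5Adipoq BAT, a difference of 0.84 ± 0.13 (SE). These ratios share Me1, which itself was 772, 913, 1040, 961 and 1009 CPM in controls and 493, 553, 623, 737 and 703 CPM in Stat5Adipoq libraries, with a log2 fold change of -0.60 (adjusted p = 0.016). Of its 50-base words 32.8% occur in other genes. Pck2 to Pck1 differed by 0.71 ± 0.21 (SE), with control replicates 2 and 5 at -8.89 and -8.76 close to the Stat5Adipoq range of -8.73 to -8.37. It was no longer past the threshold without Stat5Adipoq replicate 1, 3 or 4 (differences of 0.69, 0.66 and 0.72, exact permutation test, adjusted p = 0.060 each). Got2 to Got1 was the exception, with a difference of 0.31 (standard error 0.31, exact permutation test, p = 0.35) and control replicate 3 at -2.27, far below the other controls. Without that library the difference was 0.08.

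**Figure D4:**
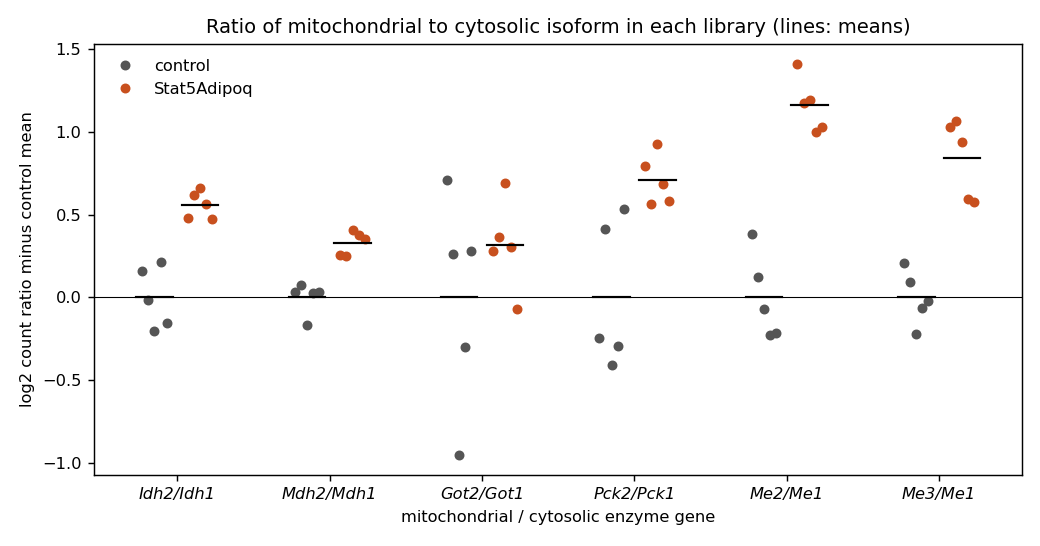
Log2 ratio of mitochondrial to cytosolic isoform counts in each library, drawn as the distance from the control mean for 6 pairs of genes, with grey points for control, orange points for Stat5Adipoq and black lines for group means. Stat5Adipoq libraries lie above all controls in 5 of the 6 pairs and overlap with them for Got2/Got1.

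Other genes around the cycle were taken from a list of 32 genes for lipoylation, assembly factors, glutamate metabolism and carriers, of which 28 were tested. In edgeR 3 were called, all of them lower, where 1.31% of all genes were called lower and 1.4% higher. An unadjusted p below 0.05 in either direction was found for 10, where all genes had 8.03% lower and 7.18% higher. Besides Me1, the lower genes were Slc25a1, the mitochondrial citrate carrier, and Slc25a10, the dicarboxylate carrier. Slc25a1 was 1136, 1224, 1109, 1073 and 1318 CPM in controls and 653, 790, 831, 1027 and 896 CPM in Stat5Adipoq libraries (log2 fold change -0.48, adjusted p = 0.031). Slc25a10 was 62.2 to 96.9 CPM and 14.1 to 47.3 CPM (log2 fold change -1.42, adjusted p = 0.018). The genotypes were apart for both carriers. Of the 28 genes, 10 had a fold change above 0, with a median of -0.04 on the log2 scale.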

How the data were processed

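RNA-Seq libraries were made from BAT with a stranded mRNA kit per the labels. The authors aligned single reads of 50 bases to GRCm38 with STAR 2.5.0b and counted them over exons with featureCounts 1.5.0-p1, and the deposited values are raw counts per gene by Entrez identifier. Whether counting used the strand is not given in the sources used here, so reads of overlapping genes may be mixed (16.2% of exon bases of Pdha1 and 23.0% of Mpc1 lie opposite another gene). The deposited DESeq2 1.16.1 tables hold the authors' fold changes and p-values and served only to pair identifiers with symbols. Groups and replicate numbers came from sample titles. The members and lists were chosen with earlier results of these data known, and values per library are given for members with an adjusted or unadjusted p below 0.05, for most genes of ratios with an adjusted p below 0.05, for called genes around the cycle and for Pdk4, which was added after its values were seen. The other members are given by range, fold change or count.

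Genes with a sum of counts over DESeq2 size factors above 45 were tested with edgeR 4.0.16 (quasi-likelihood F test, TMM, no covariate, Benjamini-Hochberg over 13568 genes). Values are TMM-scaled CPM. Ratios used counts plus 0.5 and exact two-sided permutation tests over 252 assignments, adjusted over 9 ratios, of which 1 is not reported here. Alternatives were DESeq2 1.42.0, limma-voom (limma 3.58.1), other size factors and filters, a replicate block, a muscle score covariate and leaving out libraries. The fit was tested on simulated counts. The sources name 5 replicates a group without saying that each is a separate mouse, so p-values measure the spread between these libraries. No pair of libraries agreed within sampling noise. Adjusted p-values of genes are edgeR's unless DESeq2 is named. Exon lengths and shared words came from GENCODE M21.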

Additional observations from a re-analysis of the deposited data

Results flagged for a closer look

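Of 96 groups of 5 libraries examined, 39 genes and 9 ratios in both genotypes, 9 held a library that stood far from the others for the range of its group, where chance marks about 1 in 20 groups, here 4.8. Of the 9, 5 came from control replicate 3, the library with the highest sum of muscle markers (4761 CPM) and of liver markers (86.7 CPM). In this library Mdh1 was 1625 CPM against 1261 to 1302 CPM in the other controls, Got1 was 88.9 CPM against 29.0 to 41.4 CPM, Sdhd was 1273 CPM against 1026 to 1072 CPM, Pdha1 was 2514 CPM against 2293 to 2351 CPM, and the log2 ratio of Mdh2 to Mdh1 was -0.091 against 0.10 to 0.15. For Mdh1 the log2 fold change between genotypes was -0.22 with the muscle score as a covariate and -0.25 with control replicates 3 and 5 both left out, and for the ratio the difference was 0.28 without them. The part of muscle and liver RNA in Got1, Sdhd and Pdha1 was not tested. In control replicate 1 Sdha was 3357 CPM against 3480 to 3526 CPM in the other controls. In Stat5Adipoq replicate 4 Dld was 1143 CPM against 1210 to 1235 CPM and Sucla2 was 1969 CPM against 2140 to 2204 CPM. In Stat5Adipoq replicate 2 Fh1 was 797 CPM against 740 to 750 CPM.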

How the results depend on the processing

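Over all genes, 178 were called lower and 190 higher. DESeq2's Wald test called 334 and 326, the muscle score as a covariate left 118 and 107, and fits without 1 library gave 86 to 224 and 96 to 219. Among the 39 genes, edgeR called 3 lower and 4 higher, and fits without 1 library called 1 to 3 lower and 3 to 5 higher. Lower calls fell to 1, Pcx, with the replicate block and with the muscle score as a covariate, and DESeq2's Wald test called 9 higher, where the cause was not tested. Deviations of same-numbered libraries correlated between -0.23 and 0.09. Control replicates 2 and 4 were most like the Stat5Adipoq library of their own number, and the other controls were not. Whether the numbers stand for a shared litter or day was not tested. With the block, Suclg2, Mdh1 and Pck1 lost their calls (adjusted p = 0.091, 0.11 and 0.059), and 141 lower and 132 higher genes were called among all genes. Without 1 library the ratio differences ranged from 0.51 to 0.61 for Idh2/Idh1, 0.29 to 0.35 for Mdh2/Mdh1, 1.10 to 1.26 for Me2/Me1, 0.78 to 0.91 for Me3/Me1, 0.61 to 0.84 for Pck2/Pck1, 0.08 to 0.49 for Got2/Got1, 0.084 to 0.18 for Suclg2/Sucla2 and -0.18 to 0.00 for Pdk4/Pdk2. Of 27 results followed through the alternatives none changed sign. These include counts of calls, which have no sign, and genes picked for an unadjusted p below 0.05, where a change of sign was unlikely. The other results were the 9 ratios. The number of the 39 genes with a fold change above 0 varied from 22 to 29 around the 26 given. Adding 2 counts in place of 0.5 changed no side of the threshold.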
